A study of Mus musculus with 8 samples.

Results

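The mitochondrial genome is the small circular DNA inside mitochondria, and its RNAs were followed here in mouse kidney. The members were every row of the deposited gene expression table whose gene name starts with mt-, which gave 13 of 34745 genes. All 13 are protein genes, and all 13 were among the 16576 genes that passed the filter on low counts. The GENCODE M21 annotation of GRCm38 lists 37 genes on this chromosome, of which 13 code for proteins, 2 for ribosomal RNAs and 22 for transfer RNAs. The ribosomal and transfer RNAs were not analysed here, so the comparison by RNA class holds messenger RNAs alone. Messenger RNA libraries of renal tissue were sequenced from WT mice at day 14 in 3 groups. They were uIRI with transplantation of MSCs (uIRI+MSC, n = 3), uIRI without transplantation (uIRI, n = 3) and sham (n = 2). The labels give only the abbreviation uIRI, which in kidney work usually stands for unilateral ischaemia-reperfusion injury, and MSCs, usually mesenchymal stem or stromal cells. The strain, age and sex of the mice, which kidney was taken, and the source, dose and timing of the MSCs are not stated in the labels. Nor do they say that each library came from a separate animal, so p-values measure only the spread between these libraries.

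In mammals both strands of the mitochondrial genome are copied into long RNAs by one polymerase, POLRMT, which needs the factors TFAM and TFB2M to start. Transfer RNAs lie between most of the protein genes, and cutting them out by RNase P and ELAC2 releases the messenger RNAs. The proteins made from them are all subunits of complexes I, III, IV and V of oxidative phosphorylation, and complex II is made from nuclear genes only. In the kidney, mitochondria are most dense in the proximal tubule and the thick ascending limb, which spend much ATP on transport.

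Neighbouring members overlap, and the overlaps bear on how reads could be assigned. The bases that 2 members share are in capitals in the next sequences, which were read from the GENCODE M21 transcripts of GRCm38, 5′ to 3′. The first is all of mt-Atp8 (chrM:7766-7969, plus strand), which shares 43 bases with mt-Atp6. The second is the last 60 bases of mt-Nd4l (chrM:10114-10173, plus strand), which shares 7 bases with mt-Nd4. The other two are the last 60 bases of mt-Nd5 (chrM:13506-13565, plus strand) and of mt-Nd6 (chrM:13552-13611, minus strand), which share 14 bases on opposite strands.
mt-Atp8: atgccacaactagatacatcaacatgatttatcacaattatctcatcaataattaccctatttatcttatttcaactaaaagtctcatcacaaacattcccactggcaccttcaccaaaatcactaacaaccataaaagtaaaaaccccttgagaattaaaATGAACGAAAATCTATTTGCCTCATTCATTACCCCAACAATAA
mt-Nd4l: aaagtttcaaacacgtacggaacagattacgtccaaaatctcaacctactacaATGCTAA
mt-Nd5: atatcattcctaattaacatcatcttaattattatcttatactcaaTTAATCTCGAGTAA
mt-Nd6: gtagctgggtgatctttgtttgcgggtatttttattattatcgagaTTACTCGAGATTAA

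The nuclear genome holds near-identical copies of mitochondrial genes, which can take up the same reads. A search among GENCODE M21 transcripts, at a minimum of 100 aligned bases and 95% identity, found 11 annotated copies, all of them rows of the table. Of these, 7 lie beside each other on chromosome 1, and match mt-Co1, mt-Co2, mt-Atp6, mt-Co3, mt-Nd3, mt-Nd4l and mt-Nd4. Among all windows of 100 bases in a member, 97.6% to 99.9% were found unchanged in a copy for mt-Co2, mt-Atp6, mt-Co3, mt-Nd3 and mt-Nd4l, 60.8% for mt-Nd4, 30.8% for mt-Co1 and 3.19% for mt-Nd2. None was found for mt-Nd1, mt-Atp8, mt-Nd5, mt-Nd6 and mt-Cytb. The next lines set 3 members beside their copies, also from GENCODE M21 on GRCm38. The first 60 bases of mt-Atp6 (chrM:7927-7986, plus strand) are also those of Gm10925 (chr1:24614592-24614651, minus strand), and capitals there mark the bases shared with mt-Atp8. mt-Nd3 (chrM:9459-9518, plus strand) and Gm28438 (chr1:24613060-24613119, minus strand) differ by T3C, and mt-Co1 (chrM:6390-6449, plus strand) and Gm29216 (chr1:24616129-24616188, minus strand) by A1066T. In these 2 pairs the capital is the base that differs, with positions counted from 1 at the first base of the mitochondrial gene.
mt-Atp6: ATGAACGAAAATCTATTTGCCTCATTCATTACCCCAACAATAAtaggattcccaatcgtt
Gm10925: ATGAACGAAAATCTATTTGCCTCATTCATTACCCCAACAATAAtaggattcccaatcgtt
mt-Nd3: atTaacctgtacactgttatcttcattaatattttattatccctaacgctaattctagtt
Gm28438: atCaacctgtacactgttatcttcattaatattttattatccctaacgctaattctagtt
mt-Co1: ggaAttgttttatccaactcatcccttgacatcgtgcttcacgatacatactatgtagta
Gm29216: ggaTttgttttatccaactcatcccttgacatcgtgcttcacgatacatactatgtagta

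The members took a smaller share of all counts in uIRI and uIRI+MSC libraries than in sham libraries. The share was 6.07%, 6.24% and 11.3% in uIRI+MSC libraries 1, 2 and 3, 3.49%, 4.69% and 4.84% in uIRI libraries, and 14.2% and 14.2% in sham libraries. The group means were 7.87% ± 2.97 (SD, n = 3) in uIRI+MSC, 4.34% ± 0.740 (SD, n = 3) in uIRI and 14.2% ± 0.00552 (SD, n = 2) in sham. The 3 groups did not overlap, and uIRI+MSC 3 stood above the other 2 libraries of its group. Exact 95% binomial intervals of these shares, which cover counting error only, were at most 0.0182 percentage points to either side. Library totals were 11592986 to 24300112 counts. mt-Co1 had the highest count of all genes in all 8 libraries. Among the 10 genes with the highest counts, 6, 7 and 8 were members in uIRI+MSC libraries, 4, 6 and 5 in uIRI libraries, and 8 and 8 in sham libraries.

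**Figure D1:**
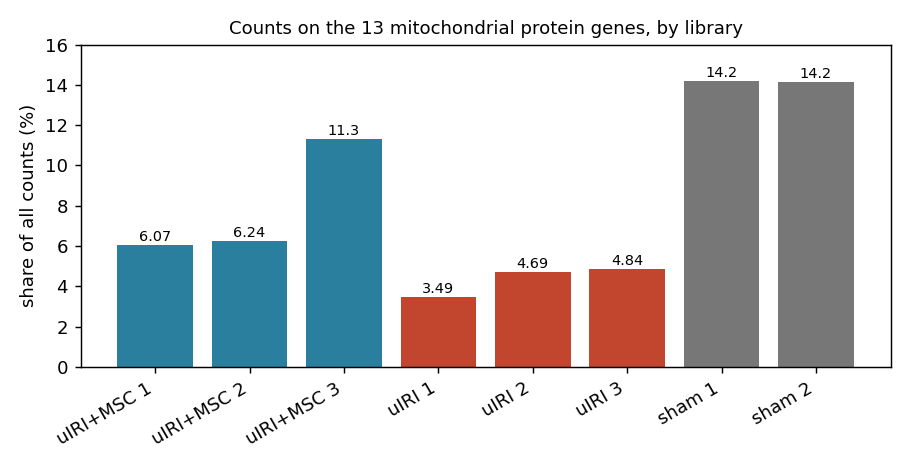
Share of all counts that fell on the 13 mitochondrial protein genes, in percent, 1 bar per library, with uIRI+MSC in blue, uIRI in red and sham in grey. The uIRI bars lie between 3.49% and 4.84%, the uIRI+MSC bars between 6.07% and 11.3%, and both sham bars at 14.2%.

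Levels are given below as scaled CPM, the counts out of every 1000000 in a library after TMM scaling, which sets the typical gene equal between libraries, and members are compared with each other only by the deposited FPKM, which divides by gene length. Differences between groups are log2 fold changes ± SE from edgeR's quasi-likelihood test, with p-values adjusted by Benjamini-Hochberg over the 16576 genes and a threshold of 0.05. Changes are relative to the median of all genes, which library size as the only scaling moved to 0.73 in uIRI against sham (0.06 with TMM). The share of lower genes among those called was then 18%, against 48.2% with TMM, and the median of the members was -1.87. In uIRI against sham, 12 of the 13 members fell, where 26.3% of all genes tested fell and 54.6% were called in either direction. For all 13 members every uIRI library was below every sham library, which held for 36.5% of all genes. The median log2 fold change was -2.53 over the members and 0.06 over all genes tested. Fold differences lay between 3.29-fold lower for mt-Nd3 and 7.62-fold lower for mt-Nd6. In bulk tissue, fewer cells of a type and less RNA per cell cannot be told apart.

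The 7 complex I subunits, which belong to the part of the NADH dehydrogenase that sits in the membrane, all fell in uIRI. mt-Nd1 was at 1963, 2539 and 2713 scaled CPM in uIRI libraries, against 15252 and 13387 in sham libraries, and its log2 fold change was -2.57 ± 0.35 (adjusted p = 0.000428). mt-Nd4 was at 2307, 3106 and 3556 scaled CPM in uIRI libraries, against 21646 and 20168 in sham libraries (log2 fold change -2.81 ± 0.45, adjusted p = 0.000883). mt-Nd5 was at 1926, 2966 and 2889.7 scaled CPM in uIRI libraries, against 15675 and 16228 in sham libraries (log2 fold change -2.62 ± 0.44, adjusted p = 0.00112). In each of these members the groups were far apart, and uIRI 1 was the lowest library. mt-Nd4l, which shares a messenger RNA with mt-Nd4, had a log2 fold change of -2.70 ± 0.41 (adjusted p = 0.000735), and mt-Nd2 one of -2.53 ± 0.36 (adjusted p = 0.000501). mt-Nd3 had the smallest change of the members called, with 201, 208 and 287 scaled CPM in uIRI libraries, against 842 and 686 in sham libraries (log2 fold change -1.72 ± 0.25, adjusted p = 0.000534).

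mt-Cytb, the cytochrome b subunit and the only mitochondrially encoded part of complex III, was at 3091, 4514 and 4617 scaled CPM in uIRI libraries, against 24725 and 22599.6 in sham libraries. It fell in uIRI, with a log2 fold change of -2.54 ± 0.34 (adjusted p = 0.000406). The 3 complex IV subunits, which form the catalytic core of cytochrome c oxidase, fell as well. mt-Co1 was at 9056, 13355 and 13454.5 scaled CPM in uIRI libraries, against 57803 and 54677 in sham libraries (log2 fold change -2.23 ± 0.37, adjusted p = 0.00115). mt-Co2 and mt-Co3 had log2 fold changes of -2.04 ± 0.29 (adjusted p = 0.000486) and -2.18 ± 0.28 (adjusted p = 0.000337).

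Complex V, the ATP synthase, has 2 mitochondrially encoded subunits, both in its membrane part. mt-Atp8 was at 1105, 979 and 1554 scaled CPM in uIRI libraries, against 5134 and 4594 in sham libraries, and fell by 2.00 ± 0.37 on the log2 scale (adjusted p = 0.00191). mt-Atp6 was at 411, 683 and 592 scaled CPM in uIRI libraries, against 2741 and 2456 in sham libraries. Its groups did not overlap, but its log2 fold change of -2.21 ± 0.95 missed the threshold (adjusted p = 0.0783). The spread in that test is shared with the uIRI+MSC libraries, where mt-Atp6 was very uneven. Without uIRI+MSC 3 the log2 fold change was -2.19 with an adjusted p of 0.000364, and all 13 members were called.

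**Figure D2:**
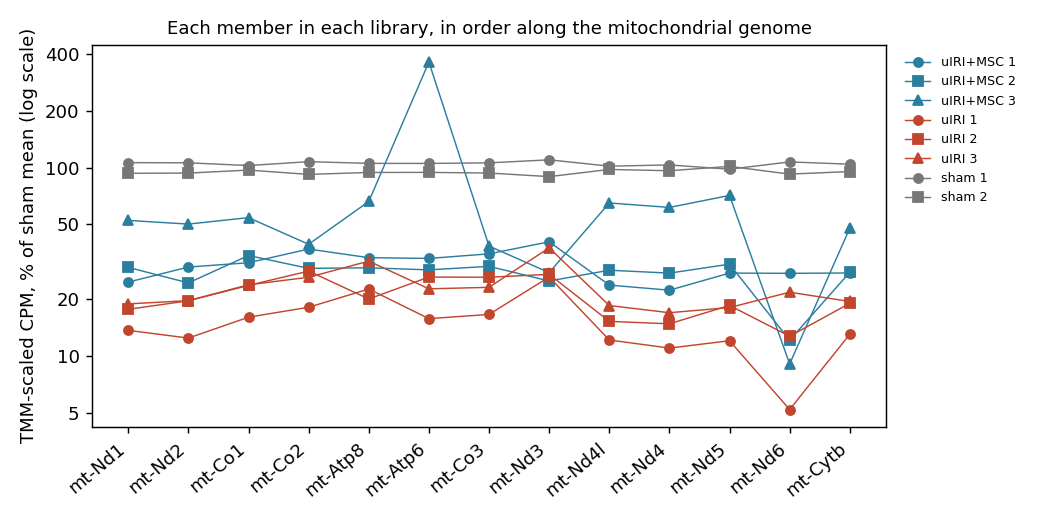
Scaled CPM of each member in each library as a percentage of the sham mean, on a log scale, with members ordered along the genome, 1 line per library and marker shapes for library numbers. The uIRI lines (red) lie between 5.21% and 37.6%, and the uIRI+MSC 3 line (blue triangles) peaks at 364% for mt-Atp6.

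In uIRI+MSC against uIRI, no member passed the threshold, nor did any of the 16576 genes tested by edgeR (0%). All 13 log2 fold changes were above 0, with a median of 1.00 over the members and -0.01 over all genes. At an unadjusted p under 0.05, edgeR put 10 of the 13 members higher in uIRI+MSC, where 11.3% of all genes were higher and 3418 genes (20.6%) passed in either direction. For 10 members every uIRI+MSC library was above every uIRI library, which held for 14.1% of all genes. DESeq2, run as an alternative, called 8 of the 13 members higher, against 4.79% of all genes. It gave mt-Atp6 a log2 fold change of 2.69 but no adjusted p, so that member could not be called. With limma-voom none was called. The highest-placed of the 8 was mt-Nd5, with a DESeq2 log2 fold change of 1.39 (adjusted p = 0.00394).

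For the members other than mt-Nd3 and mt-Nd6, the log2 fold change was larger with uIRI+MSC 3 than without it. mt-Nd5 was at 4404, 4910.3 and 11378 scaled CPM in uIRI+MSC libraries, against 1926, 2966 and 2889.7 in uIRI libraries (edgeR log2 fold change 1.41 ± 0.39, adjusted p = 0.124). mt-Nd4 was at 4682, 5769.8 and 12879.5 scaled CPM in uIRI+MSC libraries, against 2307, 3106 and 3556 in uIRI libraries (log2 fold change 1.38 ± 0.40, adjusted p = 0.129). In both, each uIRI+MSC library was above each uIRI library, and uIRI+MSC 3 exceeded the sum of the other two of its group. mt-Nd1, mt-Cytb and mt-Co1 showed the same order of libraries, with log2 fold changes of 1.08 ± 0.32, 1.00 ± 0.31 and 0.91 ± 0.34. mt-Nd3 did not: it was at 309, 192 and 212 scaled CPM in uIRI+MSC libraries, against 201, 208 and 287 in uIRI libraries, and the groups overlapped (log2 fold change 0.04 ± 0.22, adjusted p = 0.949). Without uIRI+MSC 3 the median over the members was 0.65 and 4 members had an unadjusted p under 0.05.

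Against sham, 12 of the 13 members were lower in uIRI+MSC, where 20.3% of all genes were lower and 42.4% were called in either direction. For 12 members every uIRI+MSC library was below every sham library, which held for 31.2% of all genes, and the median log2 fold change over the members was -1.49. mt-Co1 was at 17620.3, 19245 and 30576.5 scaled CPM in uIRI+MSC libraries, against 57803 and 54677 in sham libraries (log2 fold change -1.32 ± 0.37, adjusted p = 0.0197). mt-Cytb was at 6541, 6597 and 11311 scaled CPM in uIRI+MSC libraries, against 24725 and 22599.6 in sham libraries (log2 fold change -1.54 ± 0.34, adjusted p = 0.00705). mt-Nd5 had the smallest change of those called (log2 fold change -1.21 ± 0.43, adjusted p = 0.0488). Measured against the sham mean, the median member stood at 29.7%, 28.7% and 52.5% in uIRI+MSC libraries and at 13.7%, 19.7% and 21.9% in uIRI libraries. The number of members called was 7 without uIRI+MSC 1, without uIRI+MSC 2 or without sham 2, and 5 without sham 1. It was also 7 with library size as the only scaling, under which the median of all genes moved to 0.55 and the median of the members to -0.98. These comparisons share the sham, uIRI or uIRI+MSC libraries with each other and are not independent.

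**Figure D3:**
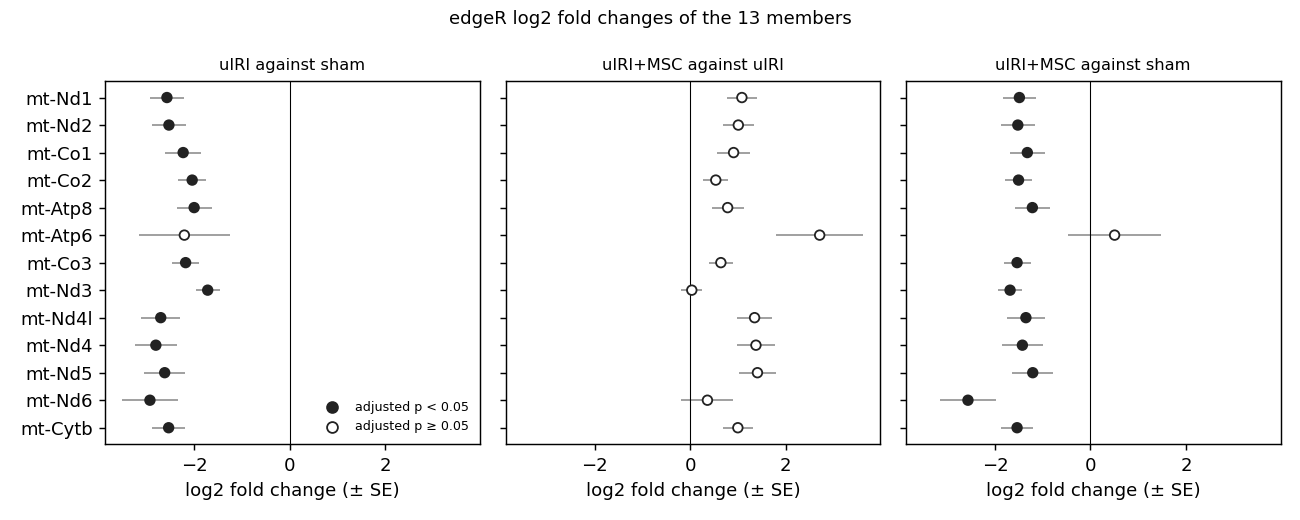
Log2 fold changes of the 13 members from edgeR, with SE bars, with 1 panel per comparison, the left one for uIRI and sham, the middle one for uIRI+MSC and uIRI, and the right one for uIRI+MSC and sham. Filled points passed an adjusted p of 0.05, which 12, 0 and 12 members did, and the mt-Atp6 bars are the widest in each panel.

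By strand, the members split into 12 genes on the plus strand and mt-Nd6, a complex I subunit, on the minus strand. mt-Nd6 had the lowest FPKM of the members in every group, at 4.27 ± 2.61 in uIRI+MSC, 3.82 ± 2.35 in uIRI (SD, n = 3 each) and 18.3 ± 0.869 in sham (SD, n = 2). mt-Nd5, its neighbour across the strands, averaged 3944 ± 2139.6 FPKM in uIRI+MSC, 1651 ± 312 in uIRI and 6437 ± 529 in sham. In human cells the ND6 messenger RNA is known to lack a poly(A) tail, and the libraries here were made from isolated messenger RNA, by a method the labels do not name. No source used here states whether the libraries keep strand, so reads of mt-Nd6 and of RNA antisense to it cannot be told apart.

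The raw counts of mt-Nd6 were small, 85, 22 and 14 in uIRI+MSC libraries, 20, 45 and 60 in uIRI libraries, and 143 and 130 in sham libraries. It fell in uIRI against sham (log2 fold change -2.93 ± 0.58, adjusted p = 0.00277) and was lower in uIRI+MSC against sham (-2.57 ± 0.58, adjusted p = 0.00772). Its level in uIRI+MSC overlapped that in uIRI, with a log2 fold change of 0.36 ± 0.54 (adjusted p = 0.743). Out of every 1000000 member counts, mt-Nd6 took 61.8, 26.9 and 10.7 in uIRI+MSC libraries, 23.6, 39.8 and 67.3 in uIRI libraries, and 69.2 and 64.7 in sham libraries. In uIRI+MSC 3, with the highest plus-strand level of its group, mt-Nd6 had the lowest such share of the 8 libraries, with an exact 95% interval of 5.85 to 17.9. The FPKM ratio of mt-Nd5 to mt-Nd6 was 352, 889 and 2754 in uIRI+MSC libraries, 814, 511 and 291 in uIRI libraries, and 321 and 386 in sham libraries. The uIRI libraries ran from below to above the sham libraries in that ratio, and 2 of the 3 uIRI+MSC libraries were above them.

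The members did not move by the same amount, so their relative abundance, the share of all member counts that each took, was compared as a description with no test. In uIRI the shares of mt-Co1, mt-Co2, mt-Co3, mt-Atp6 and mt-Nd3 were above sham without overlap. mt-Co1 took 32.0% ± 0.238 in uIRI (SD, n = 3) and 29.2% ± 0.550 in sham (SD, n = 2), and mt-Co2 took 11.4% ± 0.528 in uIRI and 9.08% ± 0.471 in sham. The shares of mt-Nd1, mt-Nd2, mt-Nd4l, mt-Nd4, mt-Nd5 and mt-Cytb were below sham without overlap. mt-Nd4 took 8.01% ± 0.494 in uIRI and 10.8% ± 0.0886 in sham, and mt-Cytb took 10.9% ± 0.0842 in uIRI and 12.3% ± 0.0659 in sham. In order along the genome, the members with a larger share in uIRI form the stretch that runs through mt-Co1, mt-Co2, mt-Atp6, mt-Co3 and mt-Nd3, with the overlapping mt-Atp8 inside it. These 5 have nuclear copies on chromosome 1, as do mt-Nd4l and mt-Nd4, whose shares were lower. The place of mt-Atp6 in the stretch holds only without the counts of its copy Gm10925. With them mt-Atp6 had 20524, 27680 and 20742 counts in uIRI libraries, where the members had 848017, 1131634 and 891956. In sham libraries it had 50265 and 47457, where the members had 2067171 and 2008989. Set against these member counts, uIRI and sham then overlapped. The part of the copies in the shares of the other members was not tested.

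Between uIRI+MSC and uIRI, mt-Nd5 was the only member whose share did not overlap, at 8.81% ± 1.39 in uIRI+MSC and 6.92% ± 0.204 in uIRI (SD, n = 3 each). The libraries within uIRI+MSC also differed from each other in these shares. mt-Co2 took 11.3%, 8.79% and 6.26% of member counts in uIRI+MSC libraries 1, 2 and 3, and mt-Co3 took 11.9%, 10.1% and 6.85%. mt-Nd4 took 8.14%, 9.89% and 11.7% in the same libraries. Genes outside the mitochondrial genome also differed by length among these libraries. Those under 1000 bases deviated from the group mean by medians of 0.25, 0.07 and -0.30 on the log2 scale in uIRI+MSC libraries 1, 2 and 3, and those over 4000 bases by -0.02, -0.01 and 0.06. The part of gene length in the shares was not tested.

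Per length, the order of the members was alike at its ends in all groups, with mt-Co1 highest and mt-Nd6 lowest. In sham, mt-Co1 averaged 26744 ± 494 FPKM, followed by mt-Co2 at 18797 ± 983, mt-Co3 at 18352 ± 553 and mt-Atp8 at 17498 ± 362 (SD, n = 2). mt-Co2 was above mt-Co3 in both sham libraries. The order of mt-Nd4, mt-Nd4l and mt-Nd1, at 11144, 10984 and 10977 FPKM, differed between the sham libraries. Lower down came mt-Nd5 at 6437 ± 529, mt-Atp6 at 2800.3 ± 55.0 and mt-Nd3 at 1609 ± 140.2 FPKM. In uIRI, mt-Co1 averaged 8988 ± 1586 FPKM, mt-Co2 7213 ± 1332 and mt-Atp8 6941 ± 1702 (SD, n = 3). Their ranges overlapped between libraries, but within each uIRI library mt-Co1 was above both. In uIRI+MSC, mt-Co1 averaged 15225 ± 4467 FPKM, and mt-Atp6, in place 8 of 13, had an SD above its mean, at 5594 ± 7523 (SD, n = 3). The overlapping pair mt-Nd4 and mt-Nd4l, read from one messenger RNA, kept an FPKM ratio between 0.919 and 1.03 in all 8 libraries.

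The other pair read from one messenger RNA, mt-Atp6 and mt-Atp8, did not keep its ratio in uIRI+MSC 3. mt-Atp6 was at 858, 746 and 9468 scaled CPM in uIRI+MSC libraries, against 411, 683 and 592 in uIRI libraries and 2741 and 2456 in sham libraries. In uIRI+MSC 3 it stood above both sham libraries, which no other member did in any uIRI or uIRI+MSC library. The FPKM ratio of mt-Atp6 to mt-Atp8 was 0.159, 0.156 and 0.880 in uIRI+MSC libraries, 0.111, 0.209 and 0.114 in uIRI libraries, and 0.160 and 0.160 in sham libraries. In 7 of the 8 libraries the ratio was at or below 0.209. mt-Atp6 took 8.61% of member counts in uIRI+MSC 3 and between 1.28% and 1.65% in the other libraries.

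The log2 fold change of mt-Atp6 in uIRI+MSC was 2.71 ± 0.91 against uIRI (adjusted p = 0.159) and 0.51 ± 0.97 against sham (adjusted p = 0.701). Without uIRI+MSC 3 these were 0.52 and -1.66, and the difference from sham was then called (adjusted p = 0.00359). The copy Gm10925, identical to mt-Atp6 over 678 bases, was also highest of its group in uIRI+MSC 3, but stayed below both sham libraries. It was at 447, 584 and 961 scaled CPM in uIRI+MSC libraries, 280, 332 and 385 in uIRI libraries, and 2143 and 1913 in sham libraries. Before scaling, Gm10925 had 10684, 8177 and 11447 counts in uIRI+MSC libraries, 8316, 9046 and 8175 in uIRI libraries, and 22058 and 20780 in sham libraries. mt-Atp6 had 20490, 10439 and 112741 counts in uIRI+MSC libraries, 12208, 18634 and 12567 in uIRI libraries, and 28207 and 26677 in sham libraries. Gm10925 counts came to 52.1%, 78.3% and 10.2% of those of mt-Atp6 in uIRI+MSC libraries, 68.1%, 48.5% and 65.1% in uIRI libraries, and 78.2% and 77.9% in sham libraries. The percentage in uIRI+MSC 3 was the lowest of the 8 libraries. When the counts of each copy were added to its member, the log2 fold change of mt-Atp6 in uIRI against sham was -2.37 and passed the threshold (adjusted p = 0.0357). Without mt-Atp6 the other members still took 10.3% of all counts in uIRI+MSC 3, the highest value of its group.

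**Figure D4:**
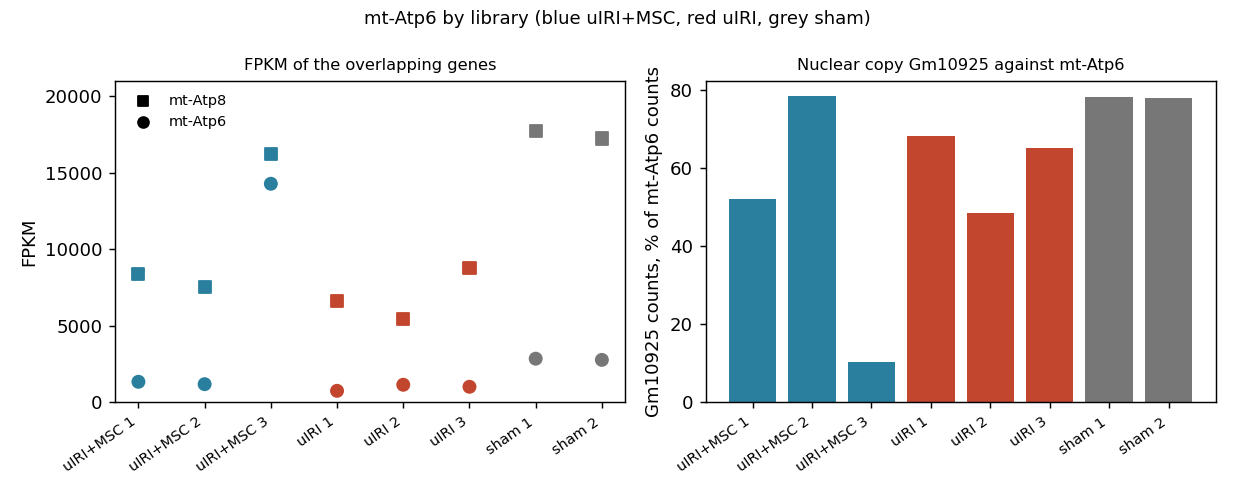
Left, FPKM of mt-Atp8 (squares) and mt-Atp6 (circles) in each library. Right, counts of the nuclear copy Gm10925 as a percentage of mt-Atp6 counts. In uIRI+MSC 3 mt-Atp6 reached 14280 FPKM and the copy was at 10.2%, against 738 to 2839 FPKM and 48.5% to 78.3% in the other libraries.

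The counts of the other copies on chromosome 1 were likewise set against those of their members. Gm28661 had 9.07% to 11.7% of the counts of mt-Co2 over the 8 libraries, Gm28437 7.75% to 9.52% of those of mt-Co3, and Gm10222 8.85% to 9.97% of those of mt-Nd4l. Gm28438 had 7.16% to 10.9% of the counts of mt-Nd3, and Gm28439, which matches part of mt-Nd4, 4.72% to 5.83%. Gm29216, which matches part of mt-Co1, had 0.936% to 1.58% of its counts, lowest in uIRI+MSC 3. The copies fell in uIRI against sham with their members. Of the 10 copies tested, all 10 were lower, where 26.3% of all genes fell, with log2 fold changes from -2.90 for Gm28439 to -1.66 for Gm13339. No source used here states how the authors' counting placed reads that match both a member and its copy, so levels of members with identical copies are uncertain. The members with no window of 100 bases unchanged in a copy, mt-Nd1, mt-Atp8, mt-Nd5, mt-Nd6 and mt-Cytb, all fell in uIRI.

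Genes of the nucleus that act on mitochondrial RNA were taken as a list of 57 names in 6 classes, of which 56 were tested. In uIRI against sham, 34 of the 56 fell and none rose, where 26.3% of all genes fell, with a median log2 fold change of -0.66. Tfam, whose protein packs the mitochondrial DNA and helps to start transcription, fell in uIRI and was at 34.2, 32.3 and 38.4 scaled CPM in uIRI libraries, against 79.1 and 65.7 in sham libraries (log2 fold change -1.05 ± 0.13, adjusted p = 0.000283). Of the 10 transcription genes, 6 fell, among them Polrmt, the polymerase (-0.92 ± 0.14), and Tfb2m, its initiation factor (-1.20 ± 0.19). Of 15 RNA processing genes, 12 fell, among them Grsf1, which binds RNA in the granules where precursors are processed (-1.70 ± 0.16), and Hsd17b10, a subunit of mitochondrial RNase P (-1.36 ± 0.14). Of the 7 RNA stability genes, 4 fell, among them Lrpprc, which keeps messenger RNAs stable (-1.49 ± 0.19). Slirp, the partner protein of LRPPRC, was not called (log2 fold change -0.23 ± 0.32, adjusted p = 0.561). Of 8 genes of DNA replication 3 fell, of 10 of transfer RNA maturation 5, and of 6 of ribosomal RNA modification 4. The count of 34 was 21 without sham 1. The direction depended on the scaling: with library size alone 11 fell and 10 rose, with a median of 0.01 where that of all genes was 0.73.

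In uIRI+MSC against uIRI, none of the 56 was called by edgeR, 3 were called by DESeq2 and 0 by limma-voom. The median log2 fold change was 0.19. At an unadjusted edgeR p under 0.05, 13 of the 56 passed, all of them higher. Over all genes 11.3% were higher at such a p, and 20.6% passed in either direction. DESeq2 called 4.79% of all genes higher, and its count of 3 regulators was near that share. Lrpprc was at 107, 105 and 111 scaled CPM in uIRI+MSC libraries, against 53.3, 86.3 and 70.8 in uIRI libraries (0.62 ± 0.17, adjusted p = 0.124). Polrmt was at 47.9, 47.0 and 42.4 scaled CPM in uIRI+MSC libraries, against 28.8, 36.8 and 33.8 in uIRI libraries (0.47 ± 0.13, adjusted p = 0.124). For both genes the groups did not overlap, yet the difference did not pass the threshold. In uIRI+MSC against sham, 24 of the 56 were lower and none was higher, where 20.3% of all genes were lower, with a median of -0.47. Tfam was at 39.2, 39.0 and 39.2 scaled CPM in uIRI+MSC libraries, against 79.1 and 65.7 in sham libraries (-0.89 ± 0.13, adjusted p = 0.00118). The count of 24 was 6 without sham 1 and 13 without sham 2. With library size alone 3 were lower and 5 higher, with a median of 0.05 where that of all genes was 0.55.

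The nuclear partners of the members, 75 genes for subunits of complexes I to V, were lower too. In uIRI against sham, 61 of 75 fell and none rose, where 26.3% of all genes fell, with a median log2 fold change of -1.42. In uIRI+MSC against sham 63 of 75 were lower, where 20.3% of all genes were lower, with a median of -1.30. With library size as the only scaling these counts were 35 and 38, where 1989 and 1352 of the 16576 genes were lower. Without sham 1 the medians were -1.25 and -1.13. By complex, the medians in uIRI against sham were -2.62 for the mitochondrial and -1.39 for the nuclear subunits of complex I, and -2.54 and -1.48 for complex III. They were -2.18 and -1.23 for complex IV, and -2.11 and -1.42 for complex V. Complex II, with nuclear genes only, had a median of -1.89, and all 4 of its genes fell, Sdhc by 1.92 ± 0.19 on the log2 scale (adjusted p = 0.000103). The gene with the smallest p was Ndufb5 in complex I, Uqcrc2 in complex III, Cox4i1 in complex IV and Atp5f1 in complex V. Uqcrc2, a core subunit of complex III, fell by 1.91 ± 0.18 on the log2 scale (adjusted p = 7.55e-05). Cox4i1, the nuclear subunit 4 of cytochrome c oxidase, fell by 1.36 ± 0.28 (adjusted p = 0.00369). In uIRI+MSC against uIRI, edgeR called none of the 75, 11 had an unadjusted p under 0.05, DESeq2 called 4 and limma-voom 0, and the median was 0.13, against 20.6% of all genes with such a p and 4.79% called higher by DESeq2. Without uIRI+MSC 1 the median was -0.12, and without uIRI 1 it was -0.02. It was 0.33 without uIRI+MSC 3, and 23 genes then had an unadjusted p under 0.05. That number was 5 without uIRI+MSC 2 or without uIRI 1. The difference between mitochondrial and nuclear subunits was not tested.

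Set per library, the summed level of the members was 57551, 58349 and 109910 scaled CPM in uIRI+MSC libraries, 28555, 41500.1 and 42008 in uIRI libraries, and 200849 and 184984 in sham libraries. The summed level of the 75 nuclear genes was 11381, 9678 and 7192 scaled CPM in uIRI+MSC libraries, 6075, 8944 and 8411 in uIRI libraries, and 25725 and 22701 in sham libraries. Members over nuclear genes gave 5.06, 6.03 and 15.3 in uIRI+MSC libraries, 4.70, 4.64 and 4.99 in uIRI libraries, and 7.81 and 8.15 in sham libraries. The uIRI libraries were below both sham libraries in this ratio, and uIRI+MSC 3 was above all others, with the highest member sum and the lowest nuclear sum of its group. The nuclear genes were not alike there: Cox4i1 was at 365, 276 and 179 scaled CPM in uIRI+MSC libraries, and Uqcrc2 at 274, 272 and 272. The part of gene length, by which genes differed among these libraries, was not tested in this ratio.

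Markers of kidney cell types differed between the groups as well. All 12 proximal tubule markers fell in uIRI against sham, where 26.3% of all genes fell. Their summed level was 8667, 7093 and 7385 scaled CPM in uIRI+MSC libraries, 1485, 4708 and 3883 in uIRI libraries, and 26439 and 23915 in sham libraries. Within groups the order of this sum did not always match that of the member sum: uIRI 1 was lowest in both, while uIRI+MSC 1 had the highest proximal tubule sum and the lowest member sum of its group. The members over these markers gave 6.64, 8.23 and 14.9 in uIRI+MSC libraries, 19.2, 8.81 and 10.8 in uIRI libraries, and 7.60 and 7.74 in sham libraries. Each uIRI library was above both sham libraries in this ratio. Of the 7 thick ascending limb markers, 5 fell in uIRI against sham and none rose, where 26.3% of all genes fell. The 7 summed to 2202, 1068 and 3128 scaled CPM in uIRI+MSC libraries, 2291, 3270.4 and 3584 in uIRI libraries, and 9364 and 11069.6 in sham libraries. All 8 macrophage markers rose in uIRI against sham, where 28.3% of all genes rose, summing to 1151, 1039 and 1184 scaled CPM in uIRI+MSC libraries, 2006, 1585 and 2138 in uIRI libraries, and 221 and 173 in sham libraries. All 7 fibroblast and matrix markers rose in uIRI as well, at sums of 2028 to 3709 scaled CPM in uIRI+MSC, 3419 to 8149 in uIRI and 285 to 408 in sham. Of the markers of skeletal or heart muscle, another tissue rich in mitochondrial RNA, those that passed the filter on low counts summed to at most 2.02 scaled CPM in any library. The part of the cell mix in the members' levels was not tested.

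**Figure D5:**
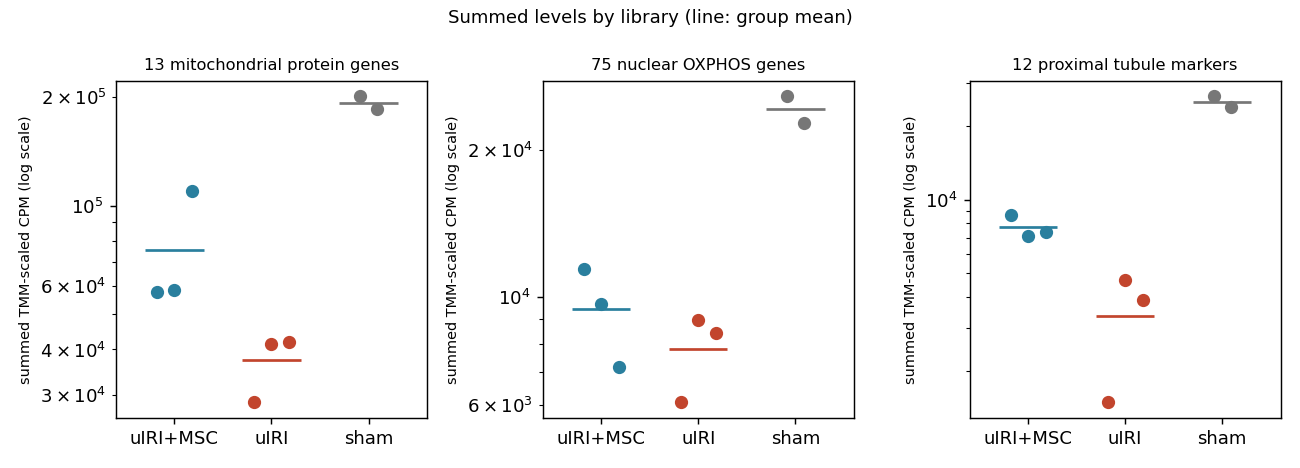
Summed scaled CPM, on a log scale, of the 13 members, the 75 nuclear oxidative phosphorylation (OXPHOS) genes and the 12 proximal tubule markers, 1 point per library with a line at the group mean. All 3 sums are highest in sham. The groups do not overlap for the members and for the proximal tubule markers, while uIRI+MSC and uIRI overlap for the nuclear genes.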

How the data were processed

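Raw gene counts and FPKM values were used as the authors deposited them, as named in the file headers, for 8 libraries of mouse renal tissue. Per the labels' protocols, messenger RNA was isolated from total RNA before library construction. The submitters' processing notes give the build as GRCm38 and list edgeR 3.2.0, StringTie 1.3.3b, HISAT2 2.0.4, Bowtie2 2.2.6, SAMtools 1.9 and FastQC 0.10.1 without their roles. No source used here states how reads with several matches, or strand, were treated. Totals were 11592986 to 24300112 counts per library.

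From the counts, edgeR 4.0.16 (R 4.3.3) gave TMM factors, the filterByExpr filter with a minimum count of 10, and the quasi-likelihood test fitted to all 3 groups together, with 5 residual degrees of freedom and Benjamini-Hochberg adjustment over 16576 genes. The procedure was also run on simulated counts in which few genes were changed, equally up and down. That setting is unlike uIRI against sham, where 54.6% of genes were called, so it does not test the scaling. Alternatives were DESeq2 1.42.0, limma 3.58.1 (voom), other scalings and filters, a replicate block, pairs of groups alone and each library left out. No pair of replicates agreed within sampling noise. Near-identical nuclear copies were found with blastn 2.17.0 among GENCODE M21 transcripts, since no genome sequence was used here.

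Genes outside the members were named by rule: the regulators Tfam, Polrmt, Tfb2m, Lrpprc and Slirp, the 3 regulators of smallest p in each comparison, the nuclear subunit of smallest p in each complex, and the nuclear copies. The members and all gene lists were chosen with earlier results of these data known. Prorp, 1 of the 57 listed regulators, was not matched.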

Additional observations from a re-analysis of the deposited data

How the results depend on the processing

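In uIRI against sham, all 13 members kept a negative log2 fold change in each alternative, and the number called stayed between 12 and 13 when 1 library was left out. Under the alternatives, 229 member values in that comparison kept their side of the threshold and 5 passed it newly, all of mt-Atp6. In uIRI+MSC against uIRI, edgeR and limma-voom called 0 members and DESeq2 called 8. The log2 fold change of mt-Nd3 there turned to -0.0014 with limma-voom and -0.12 with library size alone, and ran from -0.20 to 0.21 when 1 library was left out; that of mt-Nd6 ran from -0.29 to 0.91. In uIRI+MSC against sham, the members called numbered 7 with library size alone and 5 to 13 when 1 library was left out. There mt-Atp6 turned to -0.43 with limma-voom and -0.088 with the copies' counts added, and ran from -1.66 to 0.99 when 1 library was left out. With library size alone, regulators called were 11 lower and 10 higher in uIRI against sham, and 3 lower and 5 higher in uIRI+MSC against sham. DESeq2 called 3 higher in uIRI+MSC against uIRI. With 1 library left out, those called lower numbered 21 to 37 in uIRI against sham and 6 to 24 in uIRI+MSC against sham. The sham share of counts was 14.8% with nuclear copies added and 14.0% without mt-Atp6. The causes were not tested.

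The replicate numbers did not pair the libraries: deviations of same-numbered libraries from their group means correlated at -0.21 to 0.11. With the numbers as a replicate block, 13 members were called in uIRI against sham, 0 in uIRI+MSC against uIRI and 12 in uIRI+MSC against sham. Under the block mt-Atp6 in uIRI+MSC against sham was at -1.09. With 2 sham libraries, and 14 to 143 counts of mt-Nd6, depth and number limit these values. The nuclear copies and list counts with libraries left out were alternatives chosen after seeing the data, as was leaving out mt-Atp6.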
